A study of Mus musculus with 8 samples.

Results

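The 6 microRNAs (miRNAs) described here, of 422 measured in the mouse hippocampus, are mmu-miR-31-5p, mmu-miR-138-5p, mmu-miR-342-3p, mmu-miR-873a-3p, mmu-miR-22-3p and mmu-miR-1251-5p. They were chosen by their measured levels in these same libraries, as miRNAs that vary among mice of 1 strain, which holds for some more than for others. They set 4 libraries (B6 2, BTBR 2, BTBR 3 and BTBR 4) apart from the other 4 (B6 1, B6 3, B6 4 and BTBR 1). That division follows no label, so it is given below by the values of single libraries, without means or tests.

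The libraries hold small RNA of the hippocampus from adult male mice of 2 inbred strains, 4 mice of C57BL/6J (B6), the control strain, and 4 mice of BTBR T+ Itpr3tf/J (BTBR), studied as a model of autism. All mice were 12 weeks old, received no treatment named in the labels, and gave 1 library each from tissue punched out of brain slices. The study asked which miRNAs differ in abundance between the strains. A punch holds every cell type of the tissue, and from such bulk RNA, fewer cells of a type and less of a miRNA per cell cannot be told apart.

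A miRNA is cut from a hairpin precursor, and 1 or both arms of that hairpin are loaded into Argonaute, where bases 2 to 8, the seed, pair with target mRNAs and lower their stability and translation. miR-138-5p is abundant in the brain, where it is known for limiting the size of dendritic spines, and miR-22-3p is expressed in many tissues, neurons included. miR-342-3p is known from immune cells as well as brain, miR-31-5p from epithelial cells and muscle, while miR-873a and miR-1251 come from introns of genes with neural expression.

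The mature sequences of the 6 miRNAs follow, from RefSeq on GRCm38.p6, 5′ to 3′, with the seed in capitals, since the seed decides which targets a miRNA can share with another.
mmu-miR-31-5p: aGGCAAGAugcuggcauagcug
mmu-miR-138-5p: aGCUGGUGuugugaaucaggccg
mmu-miR-342-3p: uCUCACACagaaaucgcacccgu
mmu-miR-873a-3p: gAGACUGAcaaguucccggga
mmu-miR-22-3p: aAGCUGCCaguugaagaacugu
mmu-miR-1251-5p: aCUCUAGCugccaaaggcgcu

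The 6 seeds all differ, and none of the 367 deposited miRNAs whose names matched a RefSeq mature sequence has the seed of a member that is not itself that member. The longest stretch common to a pair of members is AGCUGCCA, which starts at base 2 of miR-22-3p, where it covers the seed, and at base 6 of miR-1251-5p, where it lies mostly behind the seed. Of the 6 members 1 starts with U, against 42.2% of the matched miRNAs, and 4 start with A. Their GC content ran from 45.5% to 57.1%, and 5 of 6 had 50% or more, against 44.4% of the matched miRNAs.

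The hairpins lie on different chromosomes except for a pair on chromosome 4, and none is clustered with another (GRCm38, GENCODE M21). Mir31 lies at chr4:88910557-88910662 on the minus strand, in an exon of the lincRNA AL805899.1. Mir873a lies at chr4:36668510-36668586 on the minus strand, in an intron of Lingo2, which encodes a neuronal membrane protein, with Mir873b on the opposite strand over it. miR-138-5p is cut from 2 hairpins, Mir138-2 at chr8:94324311-94324381 in an exon of the lincRNA C78859 and Mir138-1 at chr9:122682876-122682974 in an exon of the transcribed pseudogene Gm47135, both on the plus strand, and its reads cannot be divided between them. Mir1251 lies at chr10:92137140-92137223 on the minus strand, in an intron of Rmst, a long noncoding RNA of the developing nervous system. Mir22 lies at chr11:75463716-75463810 on the plus strand, in exons of its host transcript Mir22hg and of Tlcd2. Mir342 lies at chr12:108658620-108658718 on the plus strand, in an intron of Evl, which encodes a regulator of actin filaments.

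The libraries held 2247482 to 7904990 counts on miRNAs, the lowest in BTBR 2 and the highest in BTBR 4. BTBR 2 stood farthest from the others over all miRNAs (mean root-mean-square log2 distance 1.10, against 0.79 to 0.93 for the other libraries). Trimmed mean of M-values (TMM) factors, which correct for the composition of a library, were 0.991 to 1.18 in the 4 libraries and 0.872 to 1.04 in the other 4. let-7c-5p, the most abundant miRNA, took 14.8% to 19.1% of the counts in the 4 libraries and 20.3% to 23.2% in the others, without overlap, and the part of this in the results below was not tested. All measured neuronal marker miRNAs of a list given below were present in every library, the lowest at 61.1 CPM. Here and below levels are CPM, reads per 1000000 counts on miRNAs, after TMM normalization, and the intervals behind them cover the error of counting reads only, which carried no molecular identifiers.

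Of the 6 members, 4 were higher in the 4 libraries and 2 were lower. miR-31-5p had 474 CPM in B6 2, 190.3 in BTBR 2, 256 in BTBR 3 and 296 in BTBR 4, against 126 in B6 1, 119 in B6 3, 92.8 in B6 4 and 109 in BTBR 1. BTBR 2, the lowest of the first set, stood above B6 1, the highest of the second, and B6 2 stood 5.11-fold above B6 4. B6 2 was also 3.75-fold above the next B6 mouse, while BTBR 1 fell below the 3 other BTBR mice by at least 1.75-fold.

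miR-342-3p had 436 CPM in B6 2, 361 in BTBR 2, 394 in BTBR 3 and 218 in BTBR 4, and 159.9, 141 and 166 in B6 1, B6 3 and B6 4 and 157 in BTBR 1. The second set was narrow and 3 libraries of the first set lay well above it, with BTBR 4 between them, 1.31-fold above B6 4. Its neighbour in pattern, miR-873a-3p, had 128 CPM in B6 2, 119.9 in BTBR 2, 148 in BTBR 3 and 71.0 in BTBR 4, against 45.1, 36.3 and 52.4 in B6 1, B6 3 and B6 4 and 27.7 in BTBR 1. Here too BTBR 4 was the lowest of the first set, 1.35-fold above B6 4, and BTBR 1 was the lowest of all, with 135 reads.

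miR-1251-5p was the scarcest member and the one with the widest range, 14.7-fold from the lowest library to the highest. It had 18.1 CPM in B6 2, 16.6 in BTBR 2, 23.8 in BTBR 3 and 17.1 in BTBR 4, against 5.76, 1.61 and 2.92 in B6 1, B6 3 and B6 4 and 7.61 in BTBR 1. These levels rest on 8 to 142 reads. The exact Poisson 95% interval was 11.7 to 22.9 CPM in BTBR 2 and 5.35 to 10.5 CPM in BTBR 1, the nearest libraries of the sets, which both had 37 reads but differ in depth.

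miR-138-5p went the other way, with 746 CPM in B6 2, 466 in BTBR 2, 654 in BTBR 3 and 651 in BTBR 4, against 1075, 1656 and 1437 in B6 1, B6 3 and B6 4 and 1434 in BTBR 1. The nearest libraries were both B6, B6 1 and B6 2, 1.44-fold apart. miR-22-3p, the most abundant member, had 16642 CPM in B6 2, 10339 in BTBR 2, 16443 in BTBR 3 and 16864 in BTBR 4, against 23915, 24571 and 26553 in B6 1, B6 3 and B6 4 and 27470.2 in BTBR 1. Its sets were 1.42-fold apart and its range was the smallest of the members, 2.66-fold.

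**Figure D1:**
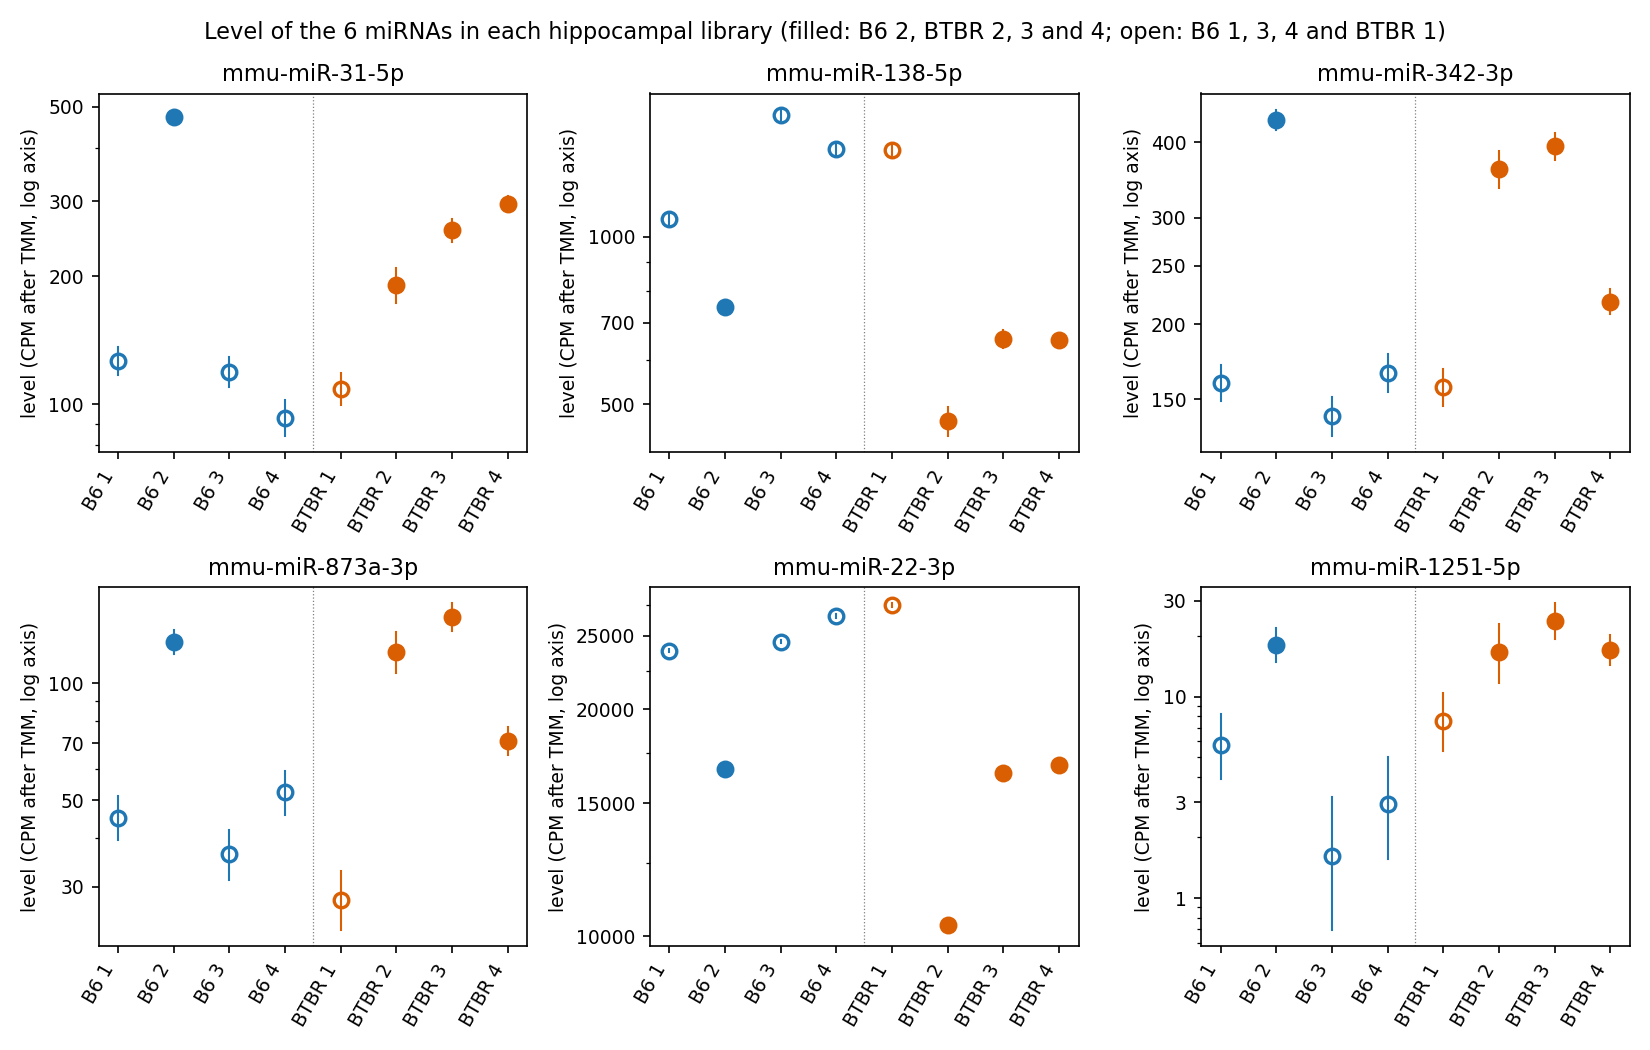
Level of each of the 6 miRNAs in each library, in CPM after TMM normalization on a log axis, with B6 mice in blue, BTBR mice in orange and exact Poisson 95% intervals as bars. Filled points are B6 2, BTBR 2, BTBR 3 and BTBR 4, which lie above the open points for miR-31-5p, miR-342-3p, miR-873a-3p and miR-1251-5p and below them for miR-138-5p and miR-22-3p.

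The separation can be set beside that of all miRNAs as a gap, the log2(CPM + 0.5) of the lowest library on the higher side less that of the highest on the lower side, which is above 0 where the sets do not overlap. Of 422 miRNAs, 47 (11.1%) had no overlap, and the 6 members are among these because they were chosen so. Higher in the 4 libraries were 26 miRNAs (6.16%), with 4 members among them, and lower were 21 (4.98%), with 2 members. The gap was 1.08 for miR-1251-5p, ranking 1 of 422, 0.59 for miR-31-5p (rank 6), 0.53 for miR-138-5p (rank 7), 0.50 for miR-22-3p (rank 8), 0.44 for miR-873a-3p (rank 9) and 0.39 for miR-342-3p (rank 13). The members are thus not the 6 widest separations. miR-673-3p (0.94), miR-211-5p (0.93), miR-486a-5p and miR-486b-5p (both 0.92, with the same counts, so their reads could not be told apart) and miR-770-5p (0.43) had the 5 widest gaps among other miRNAs, and all 5 were higher in the 4 libraries. At the lower end the members' smallest gap, 0.39 for miR-342-3p, was next to those of miR-23a-3p just above it (0.41) and miR-433-5p just below it (0.39).

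**Figure D2:**
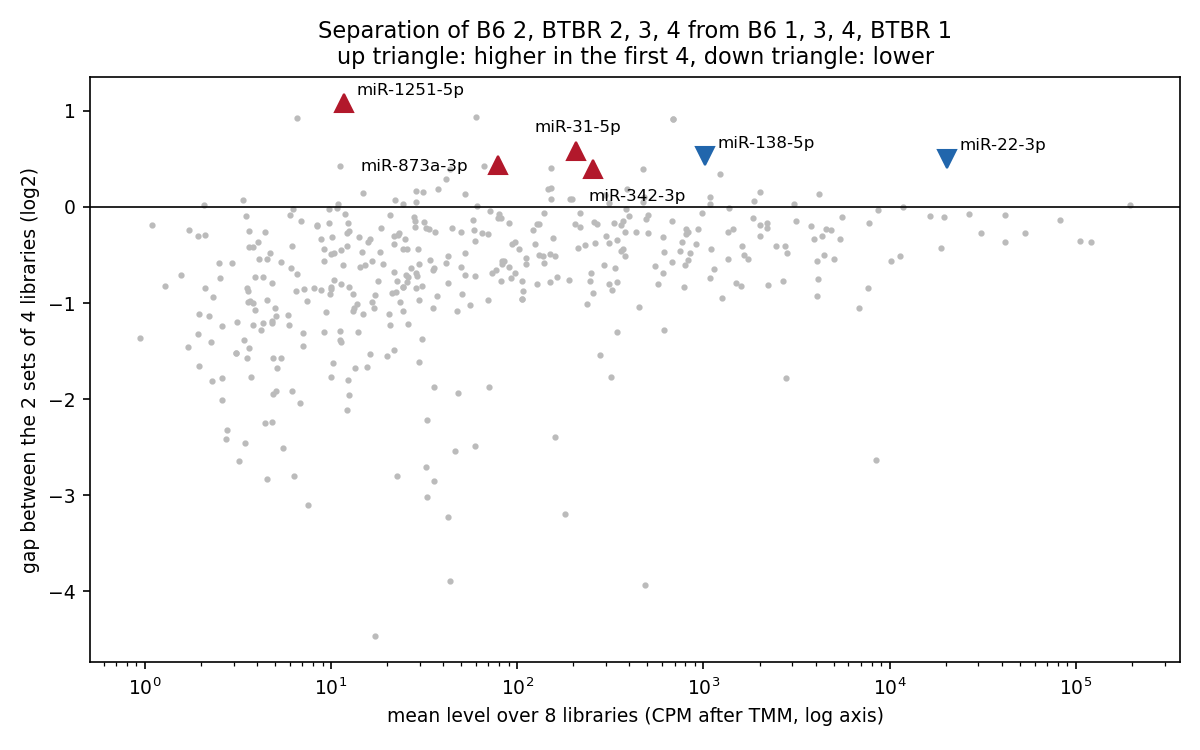
Gap between the 2 sets of libraries on the log2 scale against the mean level over 8 libraries (CPM after TMM, log axis) for all 422 miRNAs in grey and the 6 members as triangles, red and pointing up where higher in B6 2, BTBR 2, BTBR 3 and BTBR 4, and blue and pointing down where lower. Points above the line at 0 do not overlap between the sets, and the members' gaps run from 0.39 to 1.08.

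The size of some gaps depended on the scaling. With each library scaled to its total alone, the gap shrank to 0.14 for miR-138-5p and 0.13 for miR-22-3p and widened to 0.70 for miR-873a-3p, though the sets still did not overlap, and the non-overlapping miRNAs were 47 higher and 8 lower in place of 26 and 21. With upper quartile factors the gap of miR-22-3p was 0.30, and 22 miRNAs were higher and 14 lower without overlap. The 4 higher members kept gaps of 0.39 (miR-342-3p) or more under each scaling tried. Leaving out 1 library can only widen a gap, and did so by over 1.5 times for miR-342-3p and miR-873a-3p without BTBR 4 (1.12 and 1.19), for miR-31-5p without BTBR 2 (1.02) and for miR-138-5p without B6 1 (0.94).

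Ratios of members within a library do not depend on any scaling. The pairs here were picked after their values were seen. The ratio of miR-31-5p to miR-138-5p reads was 0.392 to 0.635 in the 4 libraries and 0.0646 to 0.118 in the other 4. The ratio of miR-342-3p to miR-138-5p was 0.335 to 0.775 in the 4 libraries and 0.0850 to 0.149 in the others, and that of miR-342-3p to miR-22-3p was 0.0129 to 0.0349 against 0.00572 to 0.00668. The choice of members fixes that these ratios of opposite members part the sets, and only their sizes are described here. The steadiest pairs of like direction kept their ratio closer: miR-342-3p had 2.67 to 5.66 reads for each read of miR-873a-3p over all 8 libraries, and miR-22-3p had 14.8 to 25.9 for each of miR-138-5p. Other pairs of like direction varied more, those with miR-1251-5p the most, as given below.

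Between the labelled strains, all 6 members overlapped, whereas 28 of 422 miRNAs (6.64%) did not. By edgeR's quasi-likelihood test, 7 of 422 miRNAs (1.66%) passed the study's threshold of 0.1 on the Benjamini-Hochberg adjusted p, 5 higher and 2 lower in BTBR, and 0 of 6 members did. Since the members were chosen for varying within strains, nothing is read from that count. An unadjusted p under 0.05 was given to 46 of the 422 miRNAs by edgeR's quasi-likelihood test. DESeq2's Wald test called 21 miRNAs and limma-voom 6, with 0 members in each, from which nothing is read for the same reason.

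The strain values of the members are given as a description, without a test. miR-31-5p averaged 203 ± 181 CPM in B6 and 213 ± 81.9 in BTBR (SD, n = 4 each), a log2 fold change (BTBR over B6) of 0.07 ± 0.50 (SE). miR-342-3p averaged 226 ± 141 and 282 ± 113 CPM (0.32 ± 0.40), and miR-873a-3p 65.4 ± 42.1 and 91.6 ± 53.1 CPM (0.48 ± 0.50). For these 3 the strains' difference was no larger than its standard error, which the choice of members favours, so nothing is read from it. miR-1251-5p averaged 7.09 ± 7.52 CPM in B6 and 16.3 ± 6.64 in BTBR (1.18 ± 0.64). miR-138-5p averaged 1229 ± 401 CPM in B6 and 801 ± 431 in BTBR (-0.62 ± 0.35), and miR-22-3p 22919.9 ± 4333 and 17779 ± 7116 CPM (-0.37 ± 0.27). These last 3 had the larger shares of their variation between strains.

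For the 4 higher members B6 2 moved the strain values more than any other library. Without it the log2 fold change was 0.94 for miR-31-5p, 0.90 for miR-342-3p, 1.08 for miR-873a-3p and 2.27 for miR-1251-5p, and the last was then past the threshold. Leaving out B6 2 leaves mostly the division the members were chosen for, so nothing is read from that call. With another library left out, the log2 fold change of miR-31-5p ran from -0.20 to 0.29, so that its sign was not fixed by these mice. Without BTBR 1, miR-138-5p reached -1.06 and miR-22-3p -0.66, and without BTBR 2, the library farthest from the rest, they were at -0.47 and -0.21.

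The share of the sum of squares of log2 level that lay between strains was 4.03% for miR-31-5p, 6.12% for miR-873a-3p, 9.80% for miR-342-3p, 22.6% for miR-22-3p, 30.1% for miR-138-5p and 40.8% for miR-1251-5p, beside a median of 12.2% over all miRNAs. Thus 3 members were below the median and 3 above it, so the label of variation within strains describes miR-31-5p, miR-873a-3p and miR-342-3p better than miR-1251-5p. The biological coefficient of variation from edgeR, the spread among mice of 1 strain beyond counting error, was 0.618 for miR-1251-5p, 0.508 for miR-873a-3p, 0.502 for miR-31-5p, 0.416 for miR-342-3p, 0.372 for miR-138-5p and 0.302 for miR-22-3p, beside a median of 0.337. miR-1251-5p ranked 23 of 422 and miR-22-3p ranked 264, so the members are not the most variable miRNAs of these libraries.

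How closely members moved together was measured by the standard deviation (SD), over the 8 libraries, of the log2 ratio of their reads, which is 0 where a ratio is the same in every library. It is a description of 8 points that fall in clusters and share library and depth, without a test, and the choice of members for 1 common pattern favours low values for pairs of like direction and high values for opposite ones. The pair miR-138-5p and miR-22-3p had 0.26, although the levels of each had an SD of 0.67 and 0.48. miR-342-3p and miR-873a-3p had 0.33, from SDs of 0.67 and 0.90 for each alone. miR-31-5p was looser, with 0.47 to miR-342-3p and 0.58 to miR-873a-3p. The median over pairs of the 318 miRNAs with a mean of at least 10 CPM, which were not chosen for a pattern, was 0.63 and supports nothing about the members. miR-1251-5p had 0.89 to 0.90 with the other higher members, above that median, and its own SD was 1.28. The 8 pairs of opposite direction had SDs of 1.10 to 1.99 for their ratio and 0.39 to 0.99 for their product.

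**Figure D3:**
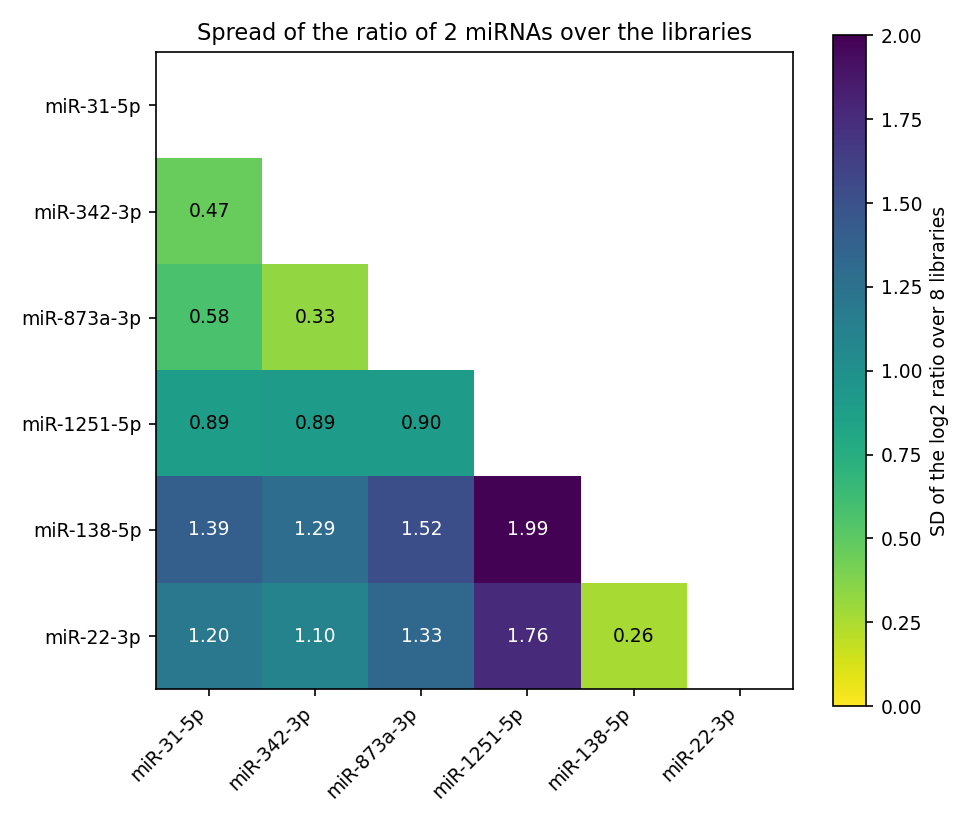
SD over 8 libraries of the log2 ratio of reads for each pair of members, from pale (steady ratio) to dark (varying ratio). The pairs miR-138-5p with miR-22-3p (0.26) and miR-342-3p with miR-873a-3p (0.33) are the steadiest, and pairs of opposite direction run from 1.10 to 1.99.

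By the same measure the nearest miRNAs to each member with a mean of at least 10 CPM were found. miR-22-3p was nearest to miR-324-5p (0.14) and miR-381-3p (0.19), and miR-138-5p to miR-324-5p (0.26) and miR-22-3p (0.26). miR-342-3p was nearest to miR-27a-3p (0.24) and miR-23a-3p (0.29), and miR-873a-3p to miR-342-3p (0.33) and miR-27a-3p (0.46). Among these nearest miRNAs, miR-22-3p and miR-342-3p are members themselves. miR-31-5p was nearest to miR-770-5p (0.35) and miR-433-5p (0.39), both of the imprinted Dlk1-Dio3 region. miR-1251-5p was nearest to miR-34a-5p (0.55) and miR-486a-5p (0.57), farther than any other member from its nearest.

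The 5 other arms of the members' hairpins that were in the table were not used to choose the members. They were miR-138-1-3p, miR-138-2-3p, miR-342-5p, miR-873a-5p and miR-22-5p, and 0 of 5 set the libraries apart as the members did, which is near the 11.1% over all miRNAs at so small a number. miR-22-5p came nearest, with a gap of -0.02 in the direction of miR-22-3p, and overlapped only as BTBR 4 (6.14 CPM) stood above B6 3 (6.05). miR-138-1-3p, lower in the 4 libraries like miR-138-5p, overlapped only through BTBR 2 (5.39 CPM, against 4.41 in B6 1). Both rest on few reads. miR-873a-5p had 66.4, 72.6, 75.3 and 67.9 CPM in B6 1 to B6 4 and 69.5, 38.2, 78.1 and 88.4 in BTBR 1 to BTBR 4. It thus lay between 66.4 and 88.4 CPM in 7 libraries and was lowest in BTBR 2, where its partner miR-873a-3p was among the highest. miR-342-5p had 18.0 to 30.0 CPM over all libraries, the highest of them in BTBR 1, where miR-342-3p was low.

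The hairpins of these 2 miRNAs are shown because their arms behaved differently, with both mature arms in capitals, 5′ arm first (RefSeq, GRCm38.p6).
Mir342: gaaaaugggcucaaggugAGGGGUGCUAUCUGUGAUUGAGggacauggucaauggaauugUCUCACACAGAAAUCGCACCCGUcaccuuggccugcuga
Mir873a: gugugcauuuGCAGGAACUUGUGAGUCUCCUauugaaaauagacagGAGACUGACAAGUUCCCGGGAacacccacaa

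Ratios of arms, here and below, were taken after adding 0.5 to each count. The ratio of 3p to 5p of Mir342 was 8.13, 18.8, 5.39 and 8.86 in B6 1 to B6 4 and 5.22, 19.9, 21.7 and 10.2 in BTBR 1 to BTBR 4. The 4 libraries thus had ratios of 10.2 to 21.7 and the others 5.22 to 8.86, without overlap. For Mir873a the ratio was 0.680, 1.76, 0.483 and 0.772 in B6 1 to B6 4 and 0.400, 3.13, 1.89 and 0.803 in BTBR 1 to BTBR 4. The 5p arm was the more abundant in all of the second set and in BTBR 4, and the 3p arm in B6 2, BTBR 2 and BTBR 3, with the sets 0.803 to 3.13 and 0.400 to 0.772. Both ratios share their numerator with the measure that chose the members. The ratios of miR-22-3p to miR-22-5p (1843 to 6861) and of miR-138-5p to miR-138-1-3p (83.0 to 475) and miR-138-2-3p (46.1 to 1742) overlapped between the sets, and they rest on few reads of the scarce arms, 12 to 52 of miR-22-5p, 5 to 35 of miR-138-1-3p and 1 to 47 of miR-138-2-3p. The ratio of 1742 is from BTBR 3, with 2612 reads of miR-138-5p and 1 of miR-138-2-3p. There the added 0.5 puts it well below the ratio of the reads themselves.

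Between strains the arm ratios are given without a p, because the members in their numerators were chosen for varying within strains. The log2 ratio in BTBR less that in B6 was 0.41 for Mir342 (mean 3.62 ± 0.96 in BTBR and 3.21 ± 0.75 in B6, SD, n = 4) and 0.52 for Mir873a (0.23 ± 1.31 and -0.29 ± 0.79). With 1 library left out, the value for Mir342 ran from 0.14 (without BTBR 3) to 0.82 (without BTBR 1), with 0.15 without B6 3, 0.18 without BTBR 2 and 0.75 without B6 2. That for Mir873a ran from 0.051 (without BTBR 2) to 1.04 (without BTBR 1), with 0.27 without B6 3, 0.29 without BTBR 3 and 0.89 without B6 2.

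**Figure D4:**
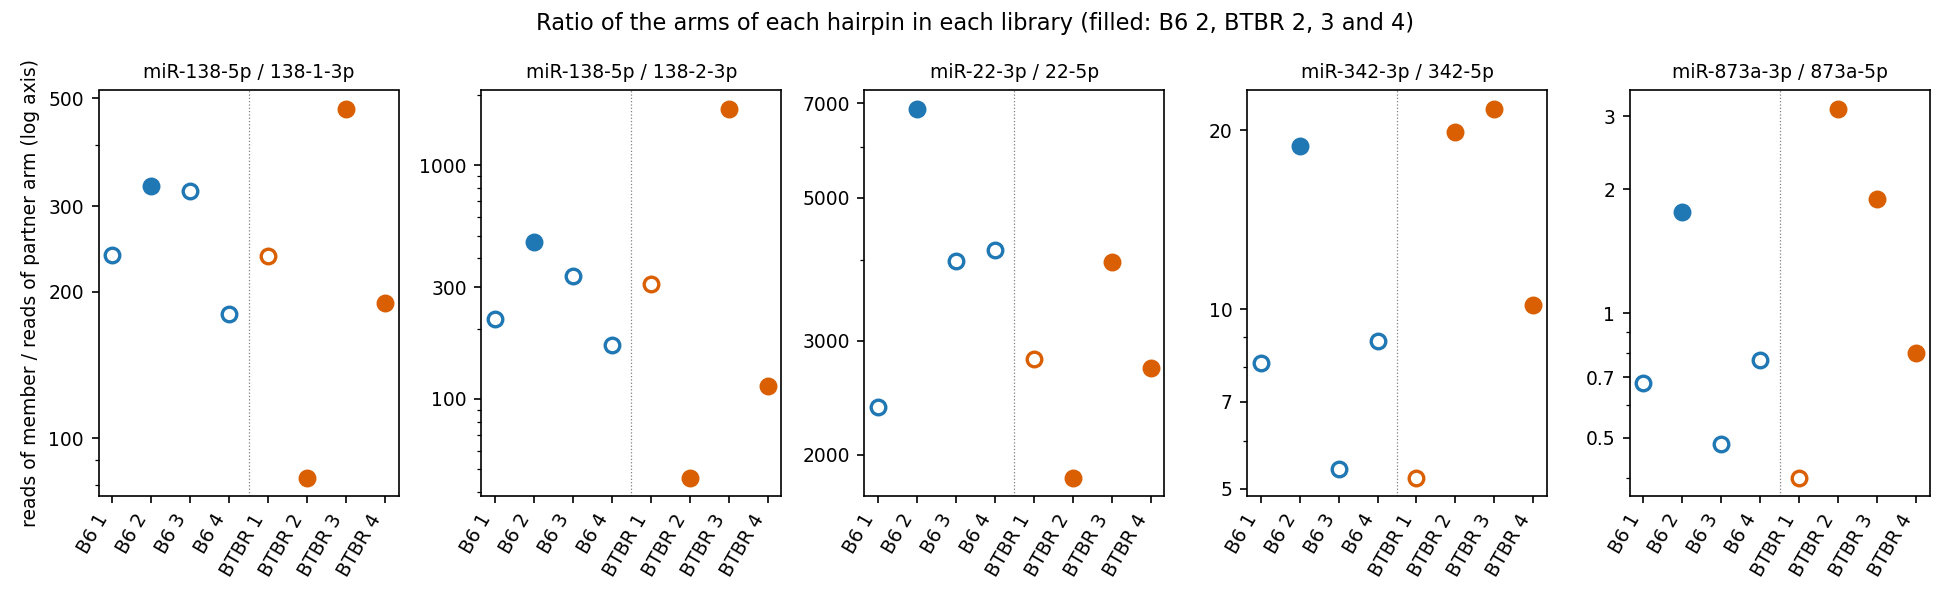
Ratio of reads of each member to reads of the other arm of its hairpin in each library, on log axes, with B6 in blue and BTBR in orange and filled points for B6 2, BTBR 2, BTBR 3 and BTBR 4. The filled points lie above the open ones for miR-342 (10.2 to 21.7 against 5.22 to 8.86) and miR-873a (0.803 to 3.13 against 0.400 to 0.772) and mix with them in the other panels.

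Deposited miRNAs within 500 kb of a member's hairpin were also outside the choice. miR-135a-5p, of which 1 of 2 hairpins lies in Rmst 65.0 kb from Mir1251, had 27.8, 32.6, 12.7 and 12.8 CPM in B6 1 to B6 4 and 14.0, 17.1, 70.1 and 40.4 in BTBR 1 to BTBR 4, so that B6 1 was above BTBR 2 and the sets overlapped. miR-212 and miR-132, an activity-regulated neuronal pair of hairpins 290 kb from Mir22, and miR-345-5p, 178 kb from Mir342, overlapped between the sets in the same way. None of the 11 arms and neighbours passed the strain threshold (Benjamini-Hochberg adjusted p 0.254 to 0.996 in edgeR's quasi-likelihood test). The lowest was that of miR-212-5p, with 232 ± 4.57 CPM in B6 and 369 ± 101 in BTBR (SD, n = 4) and a log2 fold change of 0.66 ± 0.22 (SE).

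To see which cells or regions moved with the members, 9 lists of marker miRNAs were summed in each library. Of 47 markers 43 were measured, none of these was at 0 in any library, and 5 of 43 did not overlap between the sets. This is beside 11.1% of all miRNAs. The summed level of red blood cell markers was 855 to 1376 CPM in the 4 libraries and 307 to 541 in the others, the only sum of the 9 without overlap. In it 2 of 5 markers did not overlap, miR-486a-5p, which makes up most of the sum, with 778 to 1244 CPM against 258 to 411, and miR-144-5p. miR-451a, the most specific marker of red cells on the list, overlapped, with 40.8 CPM in B6 2 and 53.6 to 94.7 in BTBR 2, BTBR 3 and BTBR 4, against 26.5 to 29.0 in B6 1, B6 3 and B6 4 and 83.0 in BTBR 1. Between the labelled strains the list had a median log2 fold change (BTBR over B6) of 1.19 beside 0.02 over all miRNAs, and 1 of 5 markers, miR-451a, was past the strain threshold (1.38 ± 0.26, SE, Benjamini-Hochberg adjusted p = 0.0339 in edgeR's quasi-likelihood test). Of the 4 libraries 3 are BTBR, and the part of blood or of strain in the members' levels was not tested.

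Microglia and blood immune cell markers, of interest because miR-342-3p is known from such cells, summed to 892 to 1746 CPM in the 4 libraries and 1045 to 1135 in the others, with 0 of 5 markers apart. BTBR 2 (1746 CPM) and B6 2 (1149) were the highest 2 libraries for this list and both were high in miR-342-3p, while BTBR 3 (905) and BTBR 4 (892) were the lowest, BTBR 3 with high and BTBR 4 with intermediate miR-342-3p. The markers on the list did not all go together. In BTBR 2 miR-146a-5p (1034 CPM) made up most of the sum. BTBR 2 was highest for miR-142a-3p, miR-146a-5p, miR-150-5p and miR-155-5p but lowest for miR-142a-5p (30.1 CPM). B6 2 had 67.1 CPM of miR-155-5p, above only BTBR 4 (64.4). The part of these cells in the level of miR-342-3p was not tested. Neuronal markers summed to 52335 to 74640.4 CPM in the 4 libraries and 63591 to 81181 in the others, with 0 of 7 apart. B6 2 was the lowest library for this list, where miR-9-5p (31206 CPM) made up most of the sum. It was also lowest for miR-9-5p, miR-128-3p, miR-124-5p and miR-129-5p. It was not lowest for miR-137-3p and miR-132-3p, and its miR-124-3p (1707 CPM) was exceeded only in BTBR 3 (2195). The part of neuronal content in the lower levels of miR-138-5p and miR-22-3p was not tested.

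Markers of other cells gave overlapping sums. Oligodendrocyte markers summed to 2289 to 4011 CPM in the 4 libraries and 2238 to 4256 in the others (0 of 3 apart), and endothelial and mural markers to 6831 to 10686 and 8863 to 13365 CPM (0 of 4 apart). Muscle markers summed to 786 to 1204 and 594 to 873 CPM (1 of 3 apart, miR-133a-3p). Choroid plexus markers ran from 5282 CPM in B6 4 to 40739 in B6 1, with 16687 in B6 2, and 2 of 12 were apart, miR-211-5p, higher, and miR-449a-5p, lower. Thus B6 1, with the most choroid plexus signal, was in the second set and B6 2 in the first.

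Markers of neighbouring regions did not follow the sets either. The Hox cluster miRNAs of hindbrain and spinal cord, of which 2 of 4 were measured, summed to 17.5 to 39.5 CPM in the 4 libraries and 8.09 to 38.0 in the others. The hypothalamic miR-7a-5p and miR-7b-5p summed to 10113 to 19052 and 13030 to 17966 CPM. B6 2 and BTBR 3 were the lowest 2 libraries for the latter and BTBR 2 the highest, so the first set held both ends of its range.

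**Figure D5:**
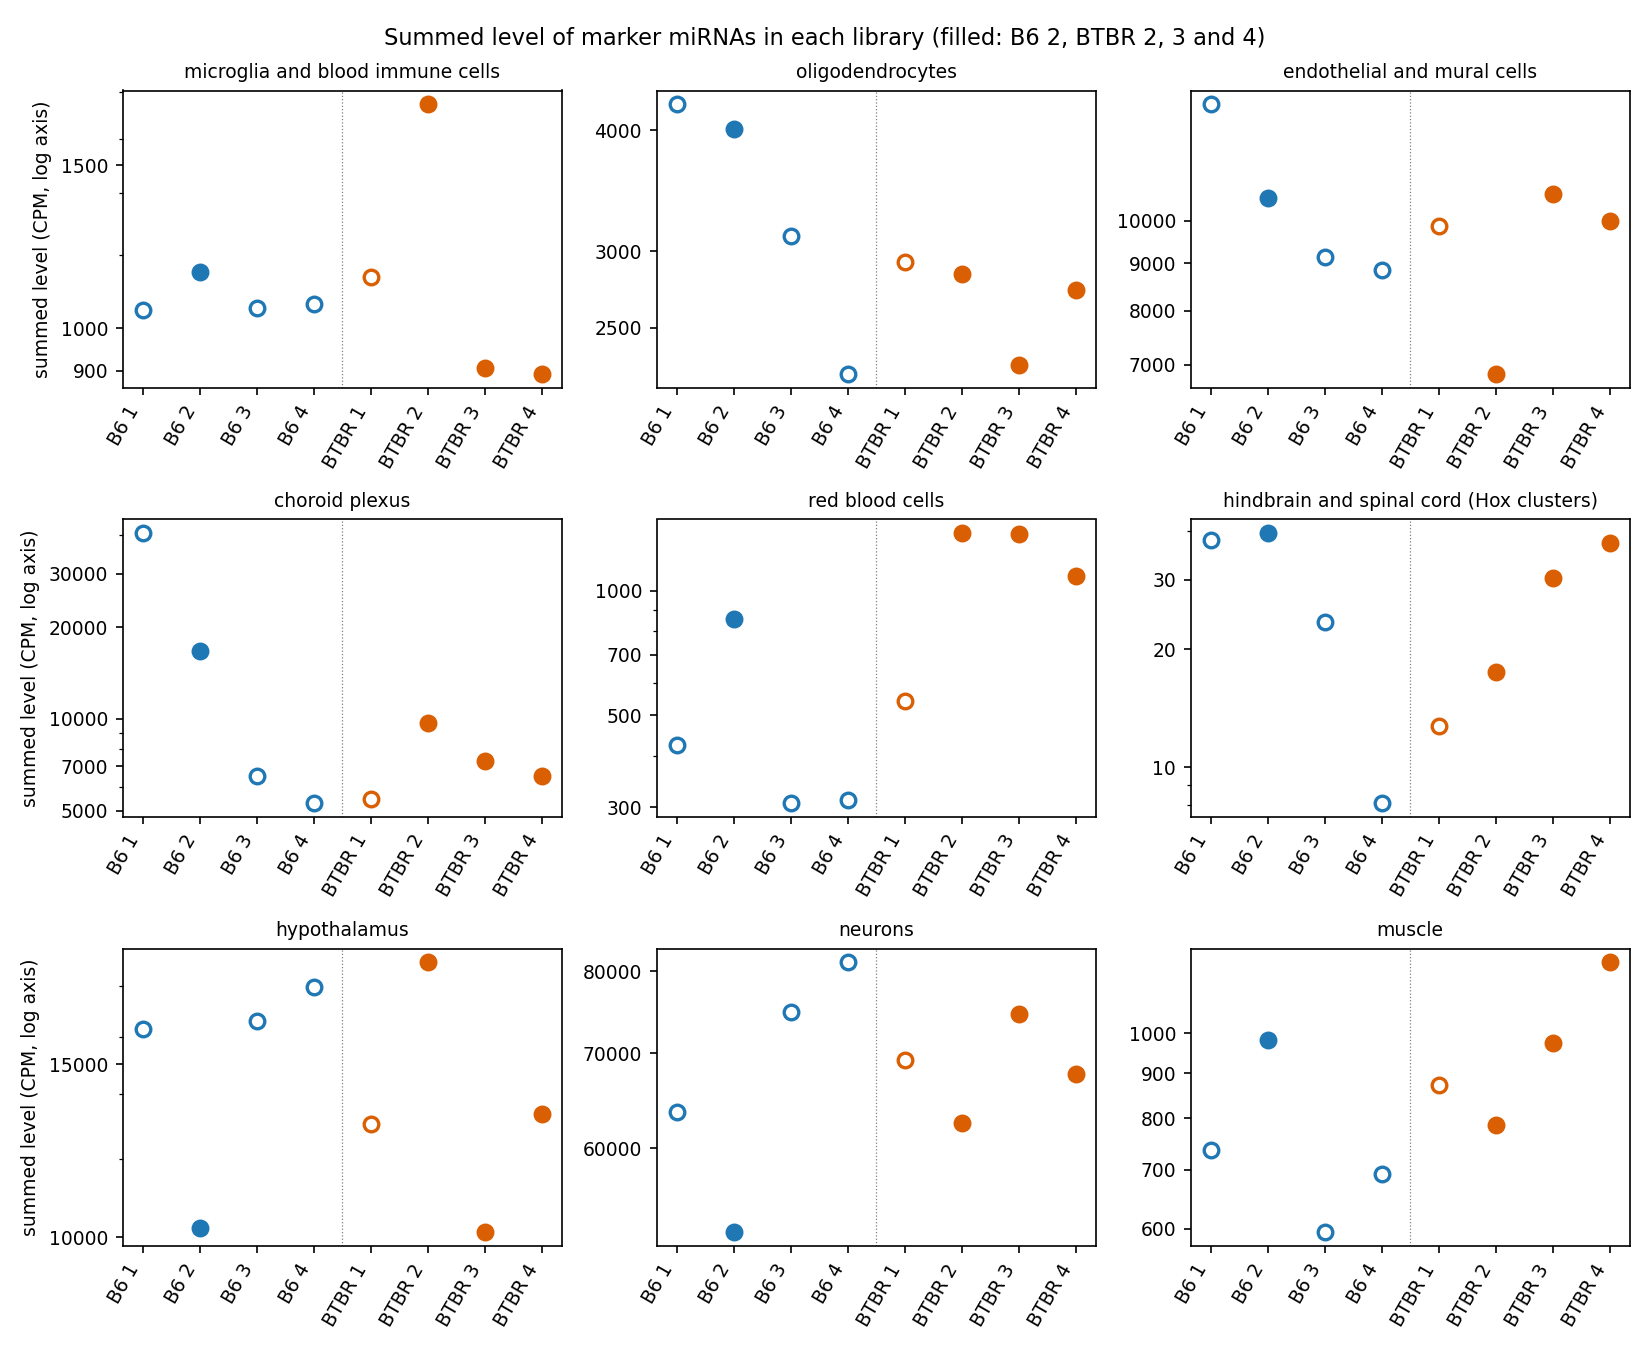
Summed level of 9 lists of marker miRNAs in each library (CPM after TMM, log axes), with B6 in blue, BTBR in orange and filled points for B6 2, BTBR 2, BTBR 3 and BTBR 4. Filled and open points are apart for red blood cell markers (855 to 1376 against 307 to 541 CPM) and mixed in the other 8 panels.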

How the data were processed

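Small RNA libraries of the hippocampus of 4 B6 and 4 BTBR mice, 1 per mouse, were sequenced by the authors, who checked the reads with FastQC 0.11.2 (per the labels), mapped them to GRCm38 with sRNAbench, which runs Bowtie, and assigned them to miRBase annotations. The authors deposited counts of reads for 422 miRNAs, without normalization, each with at least 1 read in every library, and the values appear to be rounded from fractional counts. Reads carry no molecular identifiers, so intervals cover counting error only.

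The counts (2247482 to 7904990 per library) were normalized by TMM and strains compared by the quasi-likelihood test of edgeR 4.0.16 in R 4.3.3, with Benjamini-Hochberg adjustment over all miRNAs at a threshold of 0.1. Poisson intervals, ratios and figures were made in Python 3.11.15 with scipy 1.17.1 and matplotlib 3.10.9. For ratios of arms and for log2 ratios 0.5 was added to each count, and other ratios of members used the reads as they are. limma 3.58.1 (voom), DESeq2 1.42.0, other scalings, a filter of at least 10 reads in 4 libraries, a pseudocount of 1 CPM, the replicate number as a block, and each library left out in turn were alternatives. The scripts were tested on simulated data. Libraries of a strain differed beyond sampling noise and were each kept as 1 replicate. P-values set the difference between the strains against the spread among these mice within a strain.

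Named miRNAs were the members, other arms of their hairpins, miRNAs within 500 kb, those with a member's seed (0 found), the 5 other miRNAs with the widest gap, the 2 nearest to each member in ratio, and the markers. miR-23a-3p and miR-433-5p are also named as those next to the member with the smallest gap, chosen after their values were seen. Marker lists (microglia and blood immune cells, oligodendrocytes, endothelial and mural cells, choroid plexus, red blood cells, Hox clusters, hypothalamus, neurons, muscle) came from background knowledge. The members, lists and tests were chosen with earlier results of these data known, including counts of the same libraries in a supplementary table of the paper. Positions and hosts come from GENCODE M21 and sequences from RefSeq.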

Additional observations from a re-analysis of the deposited data

Results flagged for a closer look

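Among the 4 B6 libraries, B6 2 lay far from the other 3 for 2 members. miR-31-5p had 474 CPM in B6 2 against 92.8 to 126 in B6 1, B6 3 and B6 4, and miR-342-3p had 436 CPM against 141 to 166. In each case B6 2 was picked out by its distance to the nearest other library, 0.912 and 0.914 of the range of the group. Both miRNAs were chosen because B6 2 differs from these libraries, so this is a description and not a test, and the rate at which chance picks out groups (about 1 in 20) does not apply to them.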

How the results depend on the processing

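The 6 members, chosen for separating the sets of libraries, did not overlap under the other scalings. Leaving out a library or changing the pseudocount cannot make them overlap and says nothing of stability. Leaving out 1 library, the non-overlapping miRNAs numbered 54 to 77 in place of 47, with 73 without B6 2, 75 without BTBR 1 and 77 without BTBR 2, which follows from asking for fewer libraries to agree, and the gap of miR-342-3p ran from 0.39 to 1.12. The share of these miRNAs that were higher was 55.3%, 85.5% when libraries were scaled by their totals only, 61.1% (36 miRNAs) with upper quartile factors, 49.3% without BTBR 1 and 46.2% without BTBR 4.

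Between strains, 7 miRNAs passed the threshold, against 4 with library size only, 21 with DESeq2's Wald test and 3 to 13 with 1 library left out (13 without B6 2, 4 without BTBR 1, 3 without BTBR 3 or BTBR 4). With the upper quartile scaling 6 were higher and 1 lower, with library size only 4 and 0, without B6 3 3 higher and 4 lower, and without B6 4 4 and 4, against 5 and 2. Without BTBR 1 the split was 4 and 0, and it was 3 and 0 without BTBR 3, without BTBR 4 and with the replicate number as a block. Scaling by library size alone moved the median log2 fold change of all miRNAs from 0.02 to 0.15. With the replicate number as a block 3 miRNAs passed. The numbers did not pair the samples, since same-numbered mice had correlations of deviations of 0.05, -0.07, -0.15 and -0.15. With 1 library left out, the log2 fold change ran from -0.20 to 0.94 for miR-31-5p and from 0.82 to 2.27 for miR-1251-5p.

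Some values turned sign. The log2 fold change of miR-138-2-3p (0.03) was -0.35 with limma-voom and -0.22 with the block, that of miR-342-5p (0.01) was -0.015 with the block, and that of miR-873a-5p (-0.04) was 0.016 with upper quartile factors and 0.12 with library size only. With 1 library left out the ranges were -0.46 to 0.43 for miR-138-2-3p, -0.24 to 0.31 for miR-22-5p, -0.19 to 0.088 for miR-342-5p, -0.23 to 0.13 for miR-873a-5p and -0.038 (without BTBR 1) to 0.82 for miR-132-5p, which was 0.53 with all libraries. The strain difference in the log2 ratio of miR-138-5p to miR-138-1-3p (-0.34) ran from -0.75 to 0.093 and to miR-138-2-3p (-0.26) from -1.24 to 0.51, the highest of both without BTBR 2. The cause was not tested. Few reads limit miR-1251-5p (8 in B6 3) and the scarce arms (1 of miR-138-2-3p and 5 of miR-138-1-3p in BTBR 3, 12 of miR-22-5p in BTBR 2).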
